A study of Apis mellifera with 12 samples.

Results

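The miRNAs miR-276 and miR-2796 of the honey bee (Apis mellifera) were followed through 12 pools of worker brains. They were taken by name, as the probes ame-miR-276 and ame-miR-2796, and make up 2 of the 168 miRNA probes on the array. Each is printed in 18 spots, so 36 of the 3968 spots of an array belong to them. Newly emerged workers had received, in the abdomen, 2 µL of double-stranded RNA at 10 µg/µL. In the 6 control pools (dsGFP) it was directed against green fluorescent protein, a sham target, and in the 6 knockdown pools (dsVg) against vitellogenin, a yolk protein that adult workers also make and that is linked to juvenile hormone and the start of foraging. All bees were 15 days old when sampled, and the source names call both groups forager brains. A pool held 1 µg of RNA shorter than 200 nucleotides, with 200 ng from each of 5 bees, and was read on 1 array. The labels name no restriction of the knockdown to the brain. Vitellogenin itself is no target of these arrays, so the depth of the knockdown was not analysed here. The question asked of the pools was whether lowering vitellogenin changed the signal of these miRNAs in the brain. In pooled whole brains, fewer cells that carry a miRNA and less of that miRNA per cell cannot be told apart.

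A miRNA is a short RNA that guides a silencing complex to messenger RNAs. Pairing runs mainly through its seed, bases 2 to 8 counted from the 5′ end, and lowers translation or stability of the target. In the fruit fly, miR-276 acts in the circuits of the mushroom body, the insect centre of olfactory learning, where it limits a dopamine receptor and is needed for memory formation. The other miRNA, miR-2796, is known from insects and has been reported as enriched in the honey bee brain.

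The target sequences, as the array tables give them, are shown because the seed decides which messages a miRNA can pair with. They are printed 5′ to 3′ with the seed in capitals.
ame-miR-276: uAGGAACUucauaccgugcucu
ame-miR-2796: gUAGGCCGgcggaaacuacuugc
The seeds differ, and 0 of the other probes on the array carry either of them. The sequence of miR-276 has 22 bases and a GC content of 45.5%, which equals the median of the 168 probes. That of miR-2796 has 23 bases and 60.9% GC, the 16th highest on the array. At the best ungapped placement the 2 sequences match at 8 bases.

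The probe most like miR-276 in sequence is that of miR-305, a miRNA of gut and metabolic signalling in flies. The pair is shown because no other probe comes as close in sequence, and capitals here mark the 15 matching bases among 22 aligned.
ame-miR-276: uagGaACUUCAUaccGUGCUCU
ame-miR-305: auuGuACUUCAUcagGUGCUCUg
The scanner intensity of the miR-305 probe ran from 133 to 518 over the 12 arrays, whereas that of miR-276 ran from 7343 to 25845. The probe of miR-305 exceeded the empty spots on 10 of 12 arrays. For miR-2796 the closest probes (miR-2944, miR-3782 and miR-3784) matched at 12 bases each.

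In the RefSeq annotation of assembly Amel_HAv3.1, used here only for names and neighbours, both miRNA genes lie inside the span of a protein-coding gene. Mir276 is on linkage group 7 within LOC725329, and Mir2796 is on linkage group 4 within LOC408804. Neither has another annotated miRNA gene within 10 kb. The table does not give strand or exons, and it gives these host genes no names.

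Both miRNAs were far above background in every pool. An array's background was taken from its 608 empty spots, and a probe counted as detected when its mean intensity exceeded their 95th percentile. The intensity of miR-276 was 23.2 to 176 times that percentile, and that of miR-2796 was 18.4 to 248 times. The brightest spot of an array lay between 46586 and 62141, above the highest spot of either member (27521 for miR-276 and 27309 for miR-2796, both in dsVg pool 5). Over the whole series, 34 to 168 of the 168 miRNAs counted as detected per array, 33 of them on all 12 arrays, and 84 were tested because they were detected on at least 6. The defining brain markers miR-124, miR-137 and miR-1000 were detected on 12, 11 and 11 arrays (summed intensity 1193 to 3662 in controls and 1692 to 5719 after knockdown). Muscle markers (miR-1, miR-133) were detected on 11 and 12 arrays, with summed intensities of 641 to 2382 and 777 to 2760. All 3 sensory organ markers (miR-7, miR-263, miR-263b) were detected on all 12 arrays (4361 to 19826 and 2698 to 20500). The 5 gut, fat body and endocrine markers (miR-375, miR-275, miR-305, miR-989, miR-750) were detected on 6 to 12 arrays (1504 to 3400 and 1935 to 4056). These lists are not exclusive: miR-7 is also on the brain list described below, and miR-305 on the learning list. The sums are of scanner intensity with the background of each probe left in. The median empty spot was 74.8 on the lowest array and 478 on the highest. The ranges of each marker list overlapped between the groups, but these sums are not marker signal alone and combine members that lay in opposite directions. In the normalized log2 comparison described below, the muscle markers differed by -0.90 (miR-1) and 0.57 (miR-133), the sensory organ markers by -0.42 to 0.32, the gut, fat body and endocrine markers by -0.38 to 0.61, and the brain markers by -0.26 to 0.85 (knockdown minus control). None passed the adjusted threshold, and their part in the results below was not tested.

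On the scanner's own scale, before any normalization, the miR-276 probe was brighter in most knockdown pools. Its intensity in the control pools was 7343 at the lowest (pool 5), 11750 at the median and 21640 at the highest (pool 2). In the knockdown pools it was 12786 at the lowest (pool 1), 15941 at the median and 25845 at the highest (pool 5). All 6 knockdown pools lay above the control mean, 4 control pools lay below every knockdown pool, and the groups overlapped through dsGFP pools 2 and 3. The means were 12364 ± 5302 and 17308 ± 4681 (SD, n = 6 pools each), a ratio of 1.40 (two-sided exact permutation p = 0.121 over all assignments of pools to groups of 6).

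The probe of miR-2796 showed much the same picture on this scale. Control pools ran from 5840 (pool 5) through a median of 9687 to 20052 (pool 3), and knockdown pools from 8394 (pool 1) through 14234 to 25841 (pool 5). Of the 6 knockdown pools, 5 lay above the control mean and 1, pool 1, lay below it. The means were 10740 ± 4988 and 15682 ± 5791 (SD, n = 6), a ratio of 1.46 (two-sided exact permutation p = 0.139). The bright dsGFP pool differed between the miRNAs: it was pool 2 for miR-276 and pool 3 for miR-2796, while dsVg pool 5 was the brightest knockdown pool for both. The spread within each group was larger than the difference between the group means or near it.

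**Figure D1:**
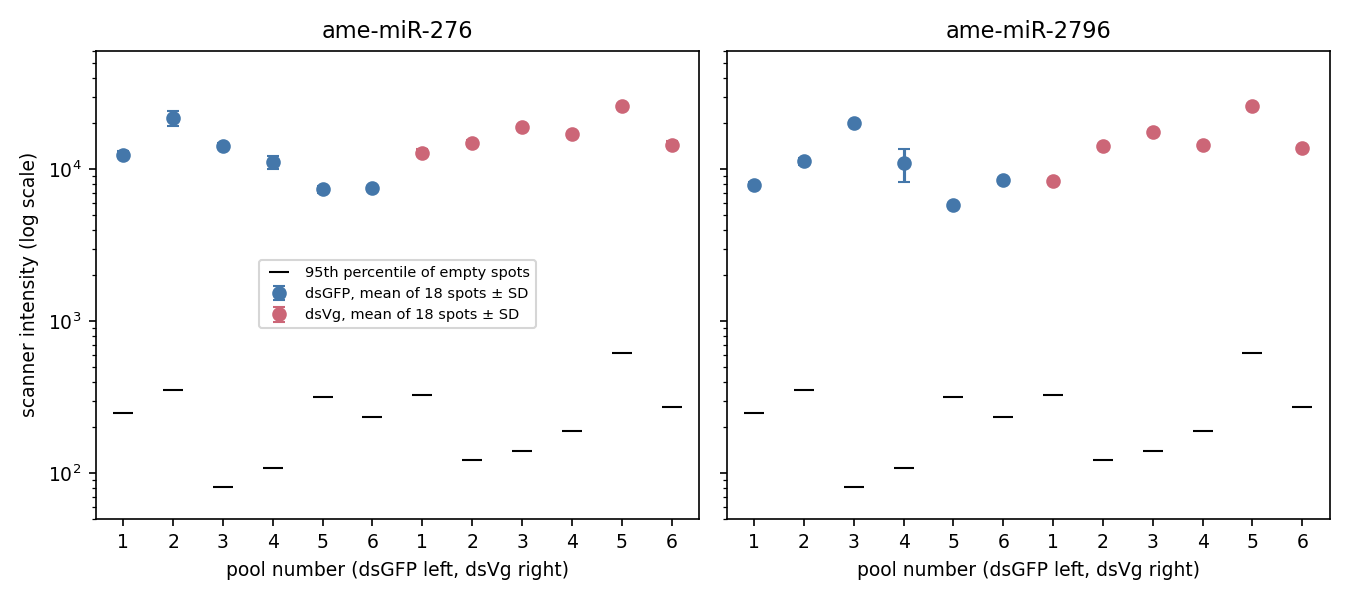
Scanner intensity (log axis) of miR-276 and miR-2796 in each of 6 dsGFP and 6 dsVg pools; points are means of 18 spots, bars their SD, and dashes the 95th percentile of the empty spots of that array. Every point lies at least 18.4 times above the dash of its array, and the wide bar is that of miR-2796 in dsGFP pool 4.

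The spread between pools was much larger than that between spots. For miR-276 the coefficient of variation over its 18 spots was 3.72% to 11.8% per array, and for miR-2796 it was 1.61% to 5.34% on 11 arrays and 24.5% in dsGFP pool 4. The single wide value came from 1 spot at 318, where the other 17 lay between 10908 and 12219. Of all 36288 miRNA spots on the 12 arrays, this was the 1 spot more than 10 times dimmer than the median spot of its probe. A milder dim spot was seen for miR-276 in dsGFP pool 2, at 12118 against 19927 to 23595 for the other 17. In log2 units the median SD over spots was 0.07 for miR-276 and 0.05 for miR-2796. The SD between pools within a group, before normalization, was 0.49 and 0.58.

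Part of that difference between groups was shared by other miRNAs. Without normalization, the log2 difference (knockdown minus control) was 0.56 (SE 0.29) for miR-276 and 0.62 (SE 0.33) for miR-2796, with a limma adjusted p of 0.828 for each (two-sided exact permutation p = 0.0801 and 0.0909). The median difference over the 84 tested miRNAs on the same scale was 0.15, with 67 higher and 17 lower, and over the 33 miRNAs detected on all arrays it was 0.34. Relative to the median of the 84, miR-276 stood 0.41 higher and miR-2796 0.47 higher. Relative to that of the 33, which are bright as the members are, they stood 0.22 and 0.28 higher. Any scaling that moves a whole array by 1 factor keeps these distances. Among the 33 bright miRNAs, such a scaling placed miR-2796 4th and miR-276 9th from the highest difference. The methods described below that do not use 1 factor placed them lower. There miR-2796 and miR-276 were 18th and 16th with quantile normalization, 10th and 14th with cyclic loess, and 12th and 17th in the authors' deposited table.

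The main comparison used intensities corrected for background with normexp and quantile-normalized between arrays. In it neither miRNA passed the test, and the group means lay closer together than the pools of a group. The log2 level of miR-276 in controls was 13.21 at the lowest (pools 3 and 6), 13.71 at the median and 13.96 at the highest (pools 1 and 2). After knockdown it was 13.49 (pool 6), 13.71 and 13.96 (pools 1 and 4). The highest level was shared by both groups, and the 2 lowest values were control pools. The group means were 13.63 ± 0.34 and 13.76 ± 0.18 (SD, n = 6), a difference of 0.13 (SE 0.16, 95% interval -0.21 to 0.47), or 1.09-fold (0.866 to 1.38), and 5 of 6 knockdown pools were above the mean of controls. The limma adjusted p was 0.817 over 84 miRNAs, and the two-sided exact permutation p was 0.422.

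For miR-2796 the control levels were 13.21 at the lowest (pools 1, 2 and 5), 13.35 at the median and 13.96 at the highest (pool 3). The knockdown levels were 13.21 (pool 6), 13.49 and 13.96 (pool 5). Both groups spanned the same range, and 4 of the knockdown pools fell on the single level of 13.49. The means were 13.46 ± 0.32 and 13.52 ± 0.24 (SD, n = 6), a difference of 0.05 (SE 0.16, 95% interval -0.29 to 0.40), or 1.04-fold (0.815 to 1.32), and 5 of 6 knockdown pools were above the mean of controls. The limma adjusted p was 0.889 and the two-sided exact permutation p was 0.697. Without dsVg pool 5 the difference was -0.03. Both intervals lie within a 2-fold change either way, but they leave out the choice of normalization. On this scale every value of both probes lay from 13.21 to 13.96, on levels fixed by rank as described below, which limits how wide the intervals can be. Without normalization the 95% intervals reached log2 differences of 1.18 for miR-276 and 1.32 for miR-2796. With scaling to the median they reached 1.20 and 1.49. A change above 2-fold is therefore not excluded on those scales.

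Neither member was among those called. Over all tested miRNAs, 0 of 84 (0%) had a limma adjusted p under 0.05, and 3 of 84 (3.57%) had an unadjusted p under 0.05, neither member among them (limma unadjusted p = 0.418 for miR-276 and 0.741 for miR-2796). Those 3, named after their values were seen, all belong to the marker lists of other tissues: miR-375 (-0.38, SE 0.12) and miR-275 (0.61, SE 0.27) to that of gut, fat body and endocrine cells, and miR-1 (-0.90, SE 0.37) to that of muscle. Their limma adjusted p-values were 0.622 for miR-375 and 0.666 for the other 2. The marker lists were chosen with earlier results of these data known, and both lists hold members in opposite directions (miR-133 of muscle, 0.57). Of the 84 tested miRNAs, the muscle list holds 2, the sensory organ list 3, and the gut, fat body and endocrine list 5. What the list membership of miR-375, miR-275 and miR-1 reflects was not tested. Groups that did not overlap were found for 0 of 84 (0%). Ordered by p-value, miR-276 was the 42nd and miR-2796 the 70th of the 84.

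Quantile normalization gave these probes few distinct values. The method replaces a probe's signal by the mean over arrays at its rank, and both probes ranked between 4 and 7 of 168 by signal on every array, so their 24 normalized values fell on 4 levels. These ranks order signals, which depend on how well a probe binds, and not abundance. Most other scalings gave larger differences: cyclic loess gave 0.13 for miR-276 and 0.21 for miR-2796, scaling to the 75th percentile 0.37 and 0.43, scaling to the median 0.50 and 0.56, and scaling to the mean of the 33 bright miRNAs 0.29 and 0.35. The sign for miR-276 was positive in the main comparison and in all 41 alternatives run. For miR-2796 it was positive in 38 of 41 and negative with the median of spots (-0.06), within the arrays with over 80 detected miRNAs (-0.06) and without dsVg pool 5. The adjusted limma p stayed at or above 0.687 for miR-276 and 0.307 for miR-2796 under every alternative.

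**Figure D2:**
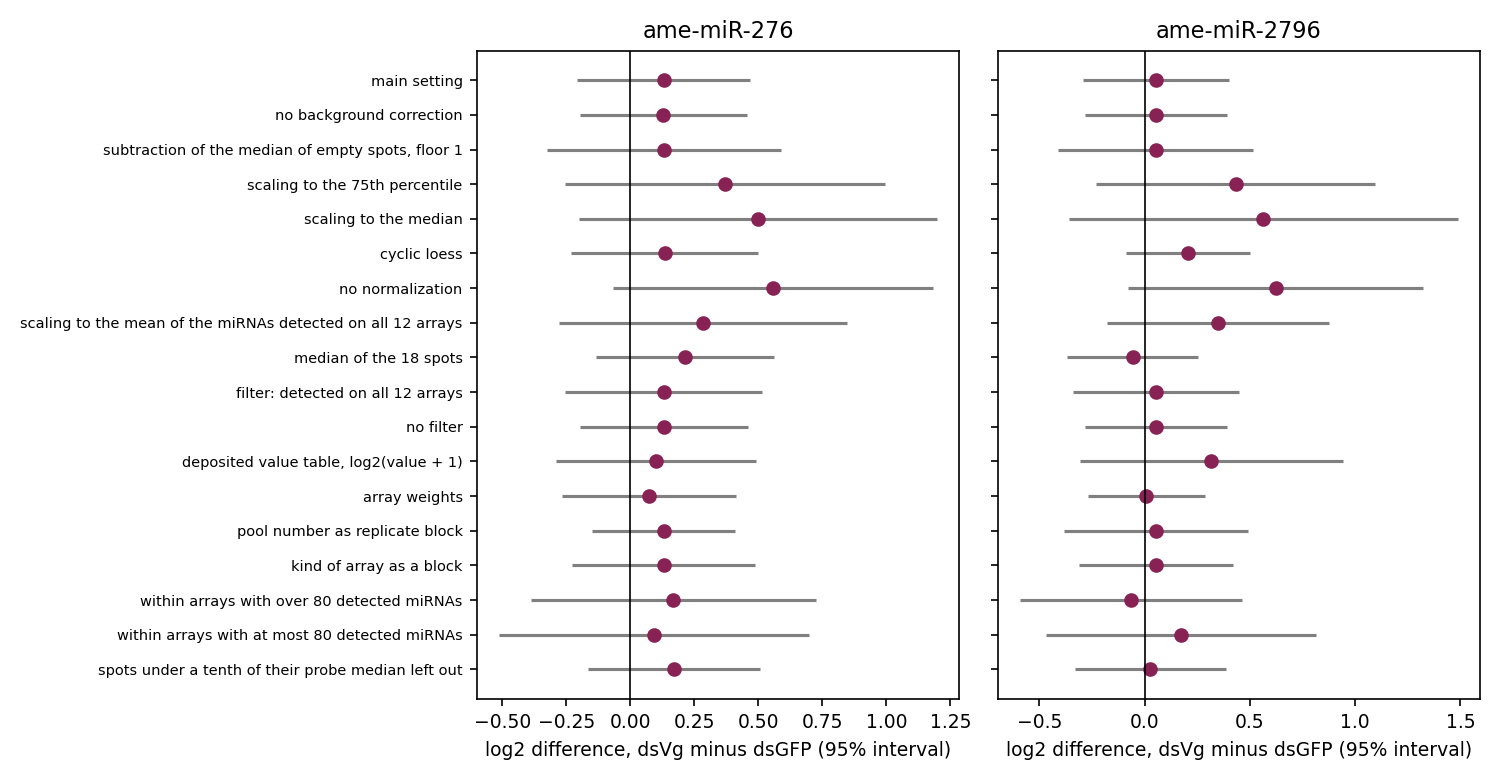
Log2 difference (dsVg minus dsGFP) of each miRNA in the main setting and 17 alternatives, with bars for the 95% interval from limma; leave-one-out settings are not drawn. Every interval includes 0, and the values run from 0.07 to 0.56 for miR-276 and from -0.06 to 0.62 for miR-2796.

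The arrays were also split at 80 detected miRNAs, into 2 kinds that the labels do not name as batches, each with 3 pools of either group. On 6 arrays 97 to 168 miRNAs exceeded the empty spots, and on the other 6 only 34 to 60 did. Within the first kind the difference was 0.17 for miR-276 and -0.06 for miR-2796, and within the second it was 0.09 and 0.17. The change of effect between kinds was -0.08 for miR-276 (limma interaction adjusted p = 0.932) and 0.24 for miR-2796 (adjusted p = 0.900).

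The authors' deposited table of processed intensities gave a second view of the same arrays. In the authors' deposited table miR-276 had values of 11789 (pool 6), 14031 at the median and 20302 (pool 1) in controls, and 13422 (pool 6), 16005 and 19465 (pool 3) after knockdown. For miR-2796 the authors' deposited table had 4762 (pool 2), 7470 and 10941 (pool 4) in controls, and 5130 (pool 3), 9212 and 15563 (pool 5) after knockdown. The groups overlapped for both miRNAs, and dsVg pools 1 and 5 lay above every control pool for miR-2796. On a log2(value + 1) scale, the difference computed here from the authors' deposited table was 0.10 (SE 0.18, 95% interval -0.29 to 0.49) for miR-276 and 0.32 (SE 0.29, 95% interval -0.31 to 0.94) for miR-2796, with limma adjusted p-values of 0.848 and 0.663 (two-sided exact permutation p = 0.485 and 0.310). Of the 84 miRNAs, 0 (0%) passed the adjusted threshold on these values, and 6 (7.14%) had an unadjusted limma p under 0.05, neither member among them.

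**Figure D3:**
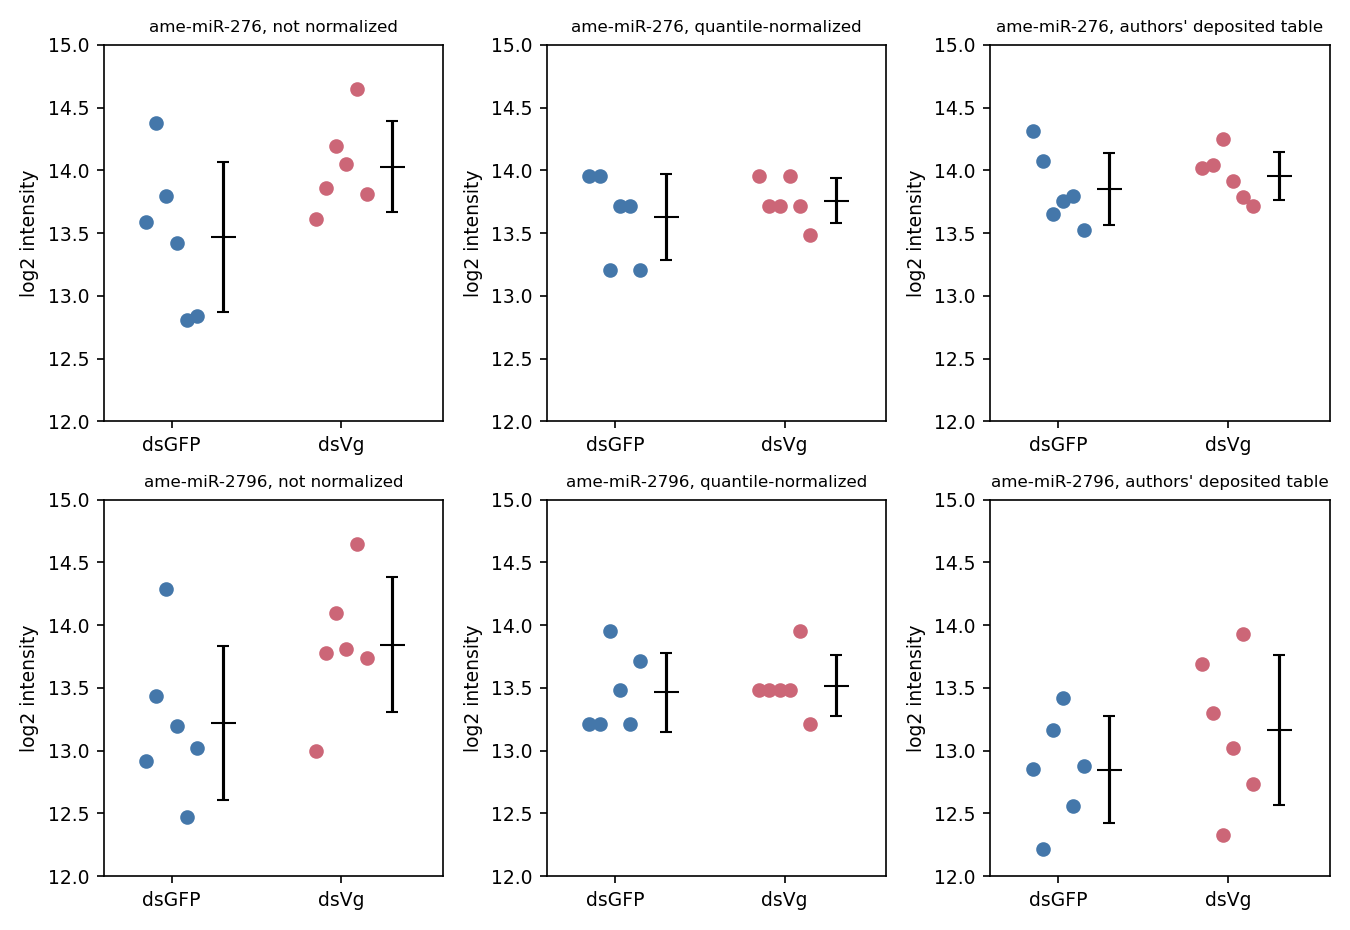
Log2 intensity of miR-276 (top row) and miR-2796 (bottom row) in dsGFP and dsVg pools before normalization, after quantile normalization and in the authors' deposited table; each point is a pool and the bar is the mean ± SD of 6 pools. The group means are 0.56 and 0.62 apart before normalization, and 0.13 and 0.05 apart after it.

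The deposited values did not follow the scanner values by 1 factor per array. After subtraction of the median empty spot, the deposited value of miR-276 was 0.558 to 2.01 times its scanner value, and that of miR-2796 was 0.294 to 1.63 times. In dsVg pool 3 the probes were almost equally bright on the scanner (18844 and 17581), yet the authors' deposited table lists 19465 for miR-276 and 5130 for miR-2796. The ratio of miR-276 to miR-2796 was 1.07 there on the scanner and 3.79 in the authors' deposited table. That ratio is no relative abundance, since probes bind differently, but a factor common to an array cannot change it. It was higher in the authors' deposited table than on the scanner on 10 of 12 arrays, by a median factor of 1.75 (range 0.815 to 3.54 over all 12), and the exceptions were dsVg pools 1 and 5. In dsVg pool 5 the scanner gave 25845 and 25841, and the deposited values were 14143 and 15563.

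**Figure D4:**
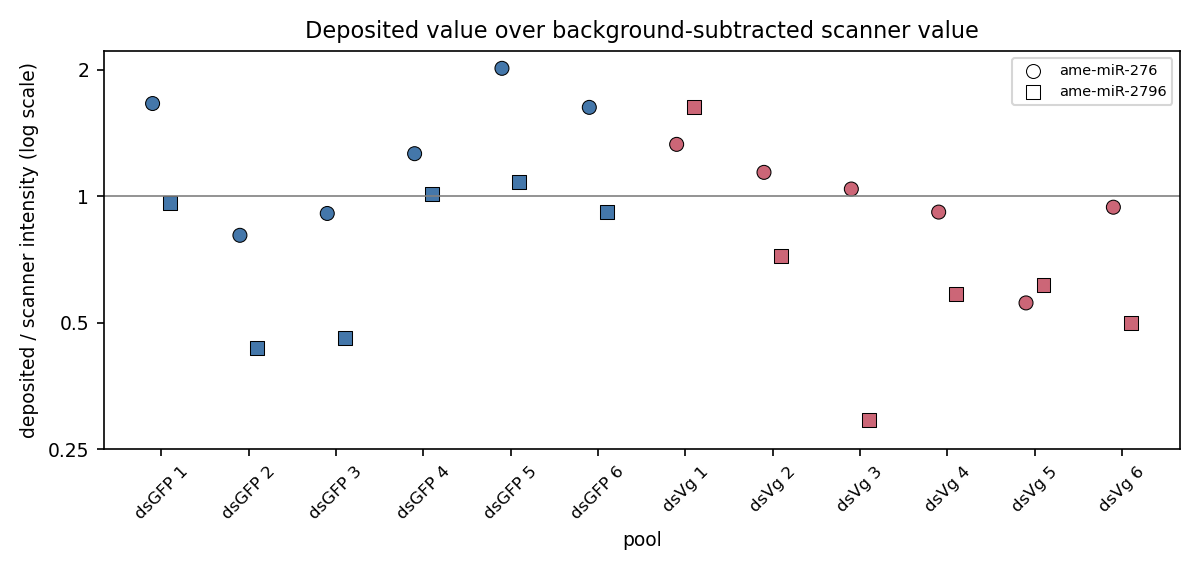
Deposited intensity divided by background-subtracted scanner intensity (log axis) for miR-276 (circles) and miR-2796 (squares) in each pool, blue for dsGFP and red for dsVg. The square lies below the circle of the same array in 10 of 12 pools, farthest in dsVg pool 3, where the factors are 1.04 and 0.294.

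Across pools, with group means removed, the quantile-normalized and deposited log2 values of miR-276 correlated at r = 0.73 (permutation p = 0.00742, adjusted p = 0.0237 over 6 relations computed, Spearman rho = 0.73, permutation p = 0.00942, adjusted p = 0.0282, n = 12). Without dsGFP pools 3 and 6, r was 0.61 (permutation p = 0.0609). For miR-2796 r was 0.61 (permutation p = 0.0370, adjusted p = 0.0734, rho = 0.70, permutation p = 0.0141, adjusted p = 0.0282), and 0.42 without dsGFP pool 3 and dsVg pool 5 (permutation p = 0.237). With those pools left out, both r were thus lower but positive, and both p-values lay above 0.05. The 2 kinds of value come from the same arrays, so their p-values are no independent support for either. Within the 2 kinds of array r was 0.67 and 0.96 for miR-276, and 0.15 and 0.94 for miR-2796, the first value in each case being that of the arrays with over 80 detected miRNAs. Over the 33 miRNAs detected on all arrays the median of this r was 0.91, and miR-276 ranked 25th and miR-2796 30th, as a description.

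How the members varied together depended on the scale. Before normalization they varied together (r = 0.72, permutation p = 0.00791, adjusted p = 0.0237, rho = 0.81, permutation p = 0.00206, adjusted p = 0.0124, n = 12), and without dsGFP pools 2 and 5 r was 0.77 (permutation p = 0.00902). Here r was 0.62 within the control pools (exact permutation p = 0.189) and 0.95 within the knockdown pools (exact permutation p = 0.00278). Within each kind of array, with group means removed, r was 0.83 (permutation p = 0.0486 and 0.0472, approximate because values were permuted across groups). Most bright miRNAs did the same on this scale: the median r of miR-276 with the 32 others was 0.72, and that of miR-2796 was 0.77. After quantile normalization r turned to -0.58 (permutation p = 0.0489, adjusted p = 0.0734, rho = -0.50, permutation p = 0.101, adjusted p = 0.134). That relation rests on dsGFP pools 3 and 6, where miR-276 was at its lowest level and miR-2796 at one of its 2 highest, since without them r was -0.19 (permutation p = 0.594). It was -0.92 within controls and 0.25 within knockdown pools (exact permutation p = 0.0333 and 0.733). Within the kinds of array, with group means removed, it was -0.94 and -0.35 (approximate permutation p = 0.0167 and 0.489). In the authors' deposited table r was -0.37 (permutation p = 0.244, adjusted p = 0.244, rho = -0.35, permutation p = 0.268), and -0.23 without dsGFP pool 1 and dsVg pool 3 (permutation p = 0.523). Both probes sat within the same 4 ranks of an array and could not hold the same rank, whereas the permutations allowed equal levels. The p-values after quantile normalization therefore cannot separate covariation from this constraint, and its part in the sign was not tested.

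**Figure D5:**
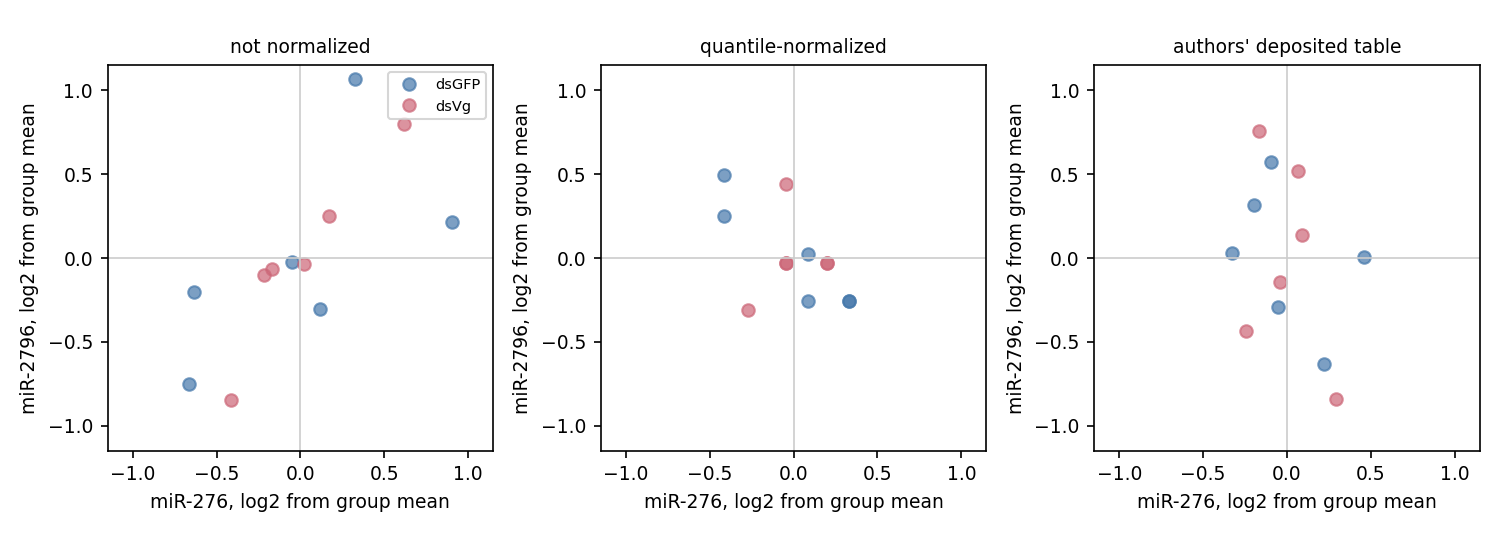
Deviation of miR-2796 from its group mean against that of miR-276 (both log2), for 12 pools, before normalization, after quantile normalization and in the authors' deposited table; pools with equal values overlap. Pools run from lower left to upper right before normalization (r = 0.72) and from upper left to lower right after it (r = -0.58).

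The 2 miRNAs were also compared inside each array, where any shift common to the array cancels. The difference of their log2 signals, miR-276 minus miR-2796, was 0.25 ± 0.53 in controls and 0.18 ± 0.23 after knockdown (SD, n = 6) before normalization. It changed by -0.06 between the groups (two-sided exact permutation p = 0.788), and 5 of 6 knockdown pools were below the mean of controls. After quantile normalization the values were 0.16 ± 0.65 and 0.24 ± 0.26, a change of 0.08 (two-sided exact permutation p = 0.864). In the authors' deposited table they were 1.00 ± 0.60 and 0.79 ± 0.69, a change of -0.22 (two-sided exact permutation p = 0.567). The sign of the change thus differed between scales, and on each scale it was smaller than the spread between control pools. The scanner and deposited versions of this within-array difference correlated across pools at r = 0.46 (permutation p = 0.137, adjusted p = 0.164, rho = 0.49, permutation p = 0.112, adjusted p = 0.134, n = 12), and at 0.17 without dsGFP pools 2 and 3 (permutation p = 0.635).

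Among the bright miRNAs, both members ranked low in spread between pools, as a description. The SD within groups of the normalized log2 signal was 0.27 for miR-276 and 0.28 for miR-2796, the 5th and 7th lowest of 33, where the median was 0.49. Before normalization they were the 5th and 8th lowest, with a median of 0.68. In the authors' deposited table it was 0.25 for miR-276, again the 5th lowest, and 0.52 for miR-2796, the 21st lowest, with a median of 0.48.

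The miRNAs with the most similar course over the 12 pools differed between the members. For miR-276 they were miR-125 (r = 0.52), which is made from the let-7 gene complex in flies, miR-307 (r = 0.31) and miR-971 (r = 0.30), among 32 bright miRNAs compared by normalized signal with group means removed. In the authors' deposited table the same 3 gave r of 0.12, -0.12 and -0.15. For miR-2796 they were miR-263 (r = 0.78) and miR-263b (r = 0.65), which protect sensory bristle cells in flies, and miR-11 (r = 0.60), and in the authors' deposited table r was 0.69, 0.89 and 0.89. The arrays are shared by all these values, so the r describe the pools and are no test. The differences between the groups of these 6 miRNAs were 0.24, 0.18, 0.49, 0.18, 0.32 and 0.14 in the same order, and none passed the adjusted threshold.

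Of 2 lists of other miRNAs, one for learning and one for the brain, no tested member passed the adjusted threshold, and the lists were not tested as groups. Of 9 miRNAs with a role in insect memory or reported in honey bee learning work, 8 were tested (miR-980 was not), 5 were higher and 3 lower after knockdown, and 0 passed the adjusted limma threshold. Their median difference was 0.25 against 0.03 over all 84 miRNAs, where 45 were higher and 39 lower. The smallest p-values were those of miR-31a (0.62, SE 0.30), the neuronal miR-124 (0.85, SE 0.41), miR-92a (0.33, SE 0.17) and miR-305 (-0.29, SE 0.17), with limma adjusted p-values of 0.666 for the first 3 and 0.772 for miR-305. Of 11 miRNAs known from insect brain or neurons, 9 were tested, 2 were higher and 7 lower, 0 passed, and the median was -0.09. The smallest p-value among them was that of miR-124, which is on both lists and was higher (0.85, SE 0.41). Next came miR-279 (-0.39, SE 0.35), miR-1000 (-0.26, SE 0.25) and miR-8 (-0.24, SE 0.24), each with a limma adjusted p of 0.772. The other higher member was miR-34 (0.28, SE 0.28). The differences of miR-276 and miR-2796 lay between the medians of these lists.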

How the data were processed

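Small RNA of 12 brain pools (6 dsGFP, 6 dsVg, grouped by sample title) was read on 12 arrays of 1 colour. Per the labels' protocols, RNA was given a poly(A) tail and a tag and stained with Cy3 by a service provider. Per the file headers, each deposited scanner table gives the intensity of 3968 spots on a linear scale; the empty spots lie above 0, so background is still in it. The authors' deposited value table holds processed intensity as whole numbers, made by a normalization that is, like the scanner and image software, not given in the sources used here. Headers name intensity as a median in dsGFP pool 1 and as a mean in the others. The spot intensities of both members are whole numbers in dsVg pool 5, whereas on the other arrays nearly all carry decimals. Whether that array was read in another way was not tested.

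With limma 3.58.1 (R 4.3.3), intensities were corrected by normexp (offset 50), log2 values of 18 spots averaged, and 168 probes quantile-normalized. The 84 miRNAs above the 95th percentile of empty spots on at least 6 of 12 arrays were tested with limma (two-sided, Benjamini-Hochberg over 84). Single values had exact permutation tests over all assignments of pools (smallest possible p 0.00216), and correlations 100000 resamples or all pairings. Where group means had been removed, values were permuted across groups, so those correlation p-values are approximate and may be too small. Kinds of array were split here at 80 detected miRNAs; no label or header names such a batch. The deposited table was tested on log2(value + 1). The scripts were tested on simulated data. The 12 arrays set the limit of precision. A check for an array deposited more than once found no such pair among the 30 pairs within a group. The labels do not say whether pools came from separate colonies, so p-values measure only the spread between these pools, which may be partly technical.

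The members and lists were chosen with earlier results of these data known. Besides the members, the named miRNAs are the 3 most similar in course to each among those detected on all 12 arrays, the 4 smallest p-values of each list, the tissue markers, and, added after the values were seen, the 3 smallest unadjusted p-values and the probes closest in sequence. Alternatives covered background, normalization, spot summary, filter, deposited table, array weights, pool number, kind of array and each pool left out. Leaving out dim spots, and single pools of the deposited table, was added after seeing the data.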

Additional observations from a re-analysis of the deposited data

Results flagged for a closer look

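In dsVg pool 5 the normalized log2 signal of miR-2796 was 13.96, apart from the other 5 knockdown pools at 13.21 to 13.49; the gap was 0.630 of the group's range, above the critical value of 0.625 for 6 samples. In the same pool the within-array difference of miR-276 minus miR-2796 was -0.24 after normalization, where the other 5 knockdown pools had 0.23 to 0.47, a gap of 0.659 of the range. These were 2 of 18 groups of values examined for a single distant pool, and both use the same miR-2796 value. For continuous normal values chance marks about 1 group in 20, a rate that need not hold for tied values. That array had the highest scanner intensity of both probes (25845 and 25841), and without it the difference of miR-2796 between the groups was -0.03. It also had the highest median of empty spots (478) and the fewest detected miRNAs (34), and its member spots are whole numbers. Both flags rest on normalized values that fell on only 4 levels. The part of these features in the flags was not tested.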

How the results depend on the processing

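The difference of miR-276 kept its sign and stayed outside the adjusted threshold under all 41 alternatives, from 0.04 to 0.56 (0.05 to 0.20 with 1 pool left out). That of miR-2796 ran from -0.065 to 0.62 and turned negative with the median of the 18 spots (-0.056), within the arrays with over 80 detected miRNAs (-0.065) and without dsVg pool 5, its range with 1 pool left out being -0.034 to 0.15. With pools of the deposited table left out in turn it was 0.17 to 0.49. The within-array difference of 0.08 became -0.064 under scaling to the 75th percentile, to the median, to the mean of the miRNAs detected on all 12 arrays and without normalization, which share 1 value by construction. It was -0.072 with cyclic loess, -0.22 in the deposited table, -0.081 within the arrays with at most 80 detected miRNAs, and -0.11 to 0.19 with 1 pool left out (negative without dsGFP pool 3 or dsGFP pool 6).

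The correlation of -0.58 became 0.70 under scaling to the 75th percentile, 0.85 under scaling to the median, 0.50 under scaling to the mean of the miRNAs detected on all 12 arrays and 0.72 without normalization. It was -0.11 with cyclic loess, -0.44 with the median of spots, -0.37 in the deposited table, -0.52 with array weights, -0.35 within the arrays with at most 80 detected miRNAs and -0.82 to -0.38 with 1 pool left out. The count past the adjusted threshold was 1 with array weights and 0 under the other alternatives. The count of 3 at an unadjusted p under 0.05 was 1 with subtraction of the median empty spot or scaling to the median, 7 with cyclic loess, 6 without a filter, 6 in the deposited table, 12 with array weights, 1 and 5 within the kinds of array with over 80 and at most 80 detected miRNAs, and 1 to 12 with 1 pool left out. Among the pools left out, dsVg pool 3 gave 12, dsVg pool 6 gave 8, and each of dsGFP pool 1, dsVg pool 1 and dsGFP pool 5 gave 1. The cause of these changes was not tested.

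With the pool number as a replicate block the differences were 0.13 (SE 0.12) and 0.05 (SE 0.18), the within-array difference 0.08 and the correlation -0.76, with 0 adjusted and 3 unadjusted calls. Same-numbered pools deviated together at -0.53 to 0.54 over 6 pairs, 2 of them above 0.1, and 2 of 6 control pools correlated best with their own number, so the numbers were not treated as pairs. Without the dim spot of dsGFP pool 4 the differences were 0.17 and 0.03.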
